A study of Mus musculus with 16 samples.

Results

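Tumour necrosis factor (TNF) receptor superfamily genes were followed in sorted mouse CD4+ T cells. The set holds 10 listed genes: the receptors Tnfrsf4, Tnfrsf9, Tnfrsf18, Tnfrsf1a, Tnfrsf1b, Tnfrsf25, Cd27, Fas and Tnfrsf13b, and Traf1, which is not a receptor but an adaptor that binds the tails of several of them. Members were chosen by name: each gene is the array probe set that the platform annotation maps to exactly its symbol, and all 10 had a single such probe set. They are 10 of 19531 genes on the array and 10 of the 12798 that passed the filter on low values, and every member stood above the filter's level on 16 of 16 arrays.

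The study compared regulatory T cells (Treg), taken as CD3+CD4+GFP+ splenocytes, with conventional T cells (Tconv), taken as CD3+CD4+GFP- splenocytes, with 2 arrays for each group. All mice were males 6 weeks old that carried a GFP reporter at Foxp3, the gene of the transcription factor that defines Treg. Mice of the first allele, Foxp3-GFP (named Foxp3-Fusion-GFP in the design text and "fusion" here), make GFP joined to the Foxp3 protein, and mice of the second, Foxp3-IRES-GFP ("ires" here), make GFP separately from the same transcript. Both alleles were on the B6 and on the NOD background, a strain prone to autoimmune diabetes, so that there were 8 groups with 2 arrays each. No group lacked a reporter allele. Whether the 2 arrays of a group stand for different animals or for pooled ones is not in the labels, and the p-values therefore measure only how far such arrays differ, which may be technical.

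TNF receptors are membrane proteins whose outer cysteine-rich repeats bind trimeric ligands of the TNF family. Receptors without a death domain, such as OX40, CD137, GITR and CD27, recruit TRAF adaptors and lead to NF-kB, a family of transcription factors held in the cytoplasm by IkB proteins; Fas, TNFR1 and DR3 carry a death domain and bind FADD or TRADD. On T cells these receptors act as costimulators or as death receptors, and OX40, GITR and TNFR2 are long known on Treg, where they affect survival, expansion and suppression.

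Values below are log2 intensities, and a difference of 1 is a doubling. Array medians of the linear intensity lay between 86.7 and 99.0, with 16 arrays in all, and this number limits the precision. Foxp3 and the T cell markers matched the labels of the sorted cells. Foxp3 read 11.37 to 12.16 in Treg and 7.01 to 8.18 in Tconv. The T cell markers Cd3d, Cd3e, Cd3g and Cd4 read at least 10.53 on every array. Of 14 B cell and plasma cell markers measured, 9 were below the filter. The 14 together summed to an intensity of 644 to 810 in Treg and 607 to 1003 in Tconv, the highest on a NOD fusion Tconv array. The 8 CD8 T and NK cell markers summed to 691 to 941 in Treg and 1053 to 1276 in Tconv, without overlap. Of the 5 tested, 3 were lower and 1 was higher in Treg. Of all genes tested, 11.9% were lower and 16.7% higher. Cd8b1 read 8.42 to 8.81 in Tconv and 7.61 to 8.73 in Treg, and Prf1 8.23 to 9.03 and 7.22 to 7.82. Cd8a went the other way, with a mean of 6.24 in Tconv and 6.46 in Treg, near the filter's level of 6.06. The part of these markers in the differences below was not tested. A gene was called changed when its p-value, adjusted by the Benjamini-Hochberg method over all 12798 genes, was under 0.05 in the linear model. As RNA was measured in sorted populations, fewer cells expressing a gene and less RNA per cell cannot be told apart.

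The windows around the annotated starts of the 4 members with the largest Treg to Tconv difference are shown because these members moved together between the cell types. Each runs 5′ to 3′ along the gene's strand, from 250 bases before to 50 bases after the start, as given by RefSeq for assembly GRCm38.p6. All 10 members matched an entry, with 12 windows between them, since Tnfrsf9 and Tnfrsf25 have a second start. Capitals mark matches to the motifs searched. Tnfrsf4 lies at chr4:156013445-156013744 on the + strand, the second window of Tnfrsf9 at chr4:150927749-150928048 (+), Tnfrsf18 at chr4:156026072-156026371 (+) and Tnfrsf1b at chr4:145246821-145247120 (-).
Tnfrsf4: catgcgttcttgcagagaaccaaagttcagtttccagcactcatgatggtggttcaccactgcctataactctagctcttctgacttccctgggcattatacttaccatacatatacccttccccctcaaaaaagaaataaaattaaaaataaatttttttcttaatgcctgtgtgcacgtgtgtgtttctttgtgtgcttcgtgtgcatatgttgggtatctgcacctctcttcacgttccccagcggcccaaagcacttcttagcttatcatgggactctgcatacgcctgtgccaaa
Tnfrsf9: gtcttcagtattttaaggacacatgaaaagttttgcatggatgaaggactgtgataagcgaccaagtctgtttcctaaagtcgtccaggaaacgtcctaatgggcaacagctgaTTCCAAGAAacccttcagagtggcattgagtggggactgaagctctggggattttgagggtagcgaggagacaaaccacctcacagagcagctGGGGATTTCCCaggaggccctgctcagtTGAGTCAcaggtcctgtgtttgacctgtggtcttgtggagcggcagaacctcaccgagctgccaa
Tnfrsf18: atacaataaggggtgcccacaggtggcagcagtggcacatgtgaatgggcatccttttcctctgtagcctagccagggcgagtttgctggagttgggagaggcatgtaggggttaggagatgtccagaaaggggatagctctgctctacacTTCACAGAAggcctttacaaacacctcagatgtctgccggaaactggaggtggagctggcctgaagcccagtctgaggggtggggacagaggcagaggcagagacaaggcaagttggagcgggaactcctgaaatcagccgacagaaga
Tnfrsf1b: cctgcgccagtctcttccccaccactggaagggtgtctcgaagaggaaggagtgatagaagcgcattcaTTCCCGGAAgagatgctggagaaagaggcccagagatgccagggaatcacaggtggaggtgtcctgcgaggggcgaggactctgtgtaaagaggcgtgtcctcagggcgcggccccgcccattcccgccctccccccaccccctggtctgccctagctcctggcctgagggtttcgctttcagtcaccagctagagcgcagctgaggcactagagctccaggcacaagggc

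Motifs were searched on both strands as the GAS element of STAT factors (TTCNNNGAA), the AP-1 element (TGANTCA), the forkhead element (TGTTTAC) and the NF-kB consensus by name. The second Tnfrsf9 window, the one shown, held the NF-kB consensus in the run GGGGATTTCCC, together with a GAS match and an AP-1 match. In that run 2 overlapping positions match, 1 of them on both strands. The first Tnfrsf9 window, which is not shown, held none of the motifs. The windows of Tnfrsf18 and Tnfrsf1b each held a GAS match, at bases 152 to 160 and 70 to 78, and that of Tnfrsf4 held none of the motifs. Over all 12 member windows, 6 held GAS, 2 AP-1, 1 the NF-kB consensus and 0 the forkhead element. The other GAS matches were in the windows of Tnfrsf1a and Fas and the second window of Tnfrsf25, members with smaller or opposite differences between Treg and Tconv. Among all 32851 windows of the same length the shares were 8.3% for GAS, 7.81% for AP-1, 4.51% for NF-kB and 3.65% for forkhead. A match is a run of letters in this window and not a site shown to be bound.

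Between Treg and Tconv all 10 members were called, 9 higher in Treg and 1 lower. Of all genes tested, 28.6% were called in either direction, 16.7% as higher and 11.9% as lower. The members' median difference was 0.74, against -0.01 for all genes tested. The 4 members above 4-fold or near it were costimulatory receptors: Tnfrsf4 (OX40), Tnfrsf9 (CD137), Tnfrsf1b (TNFR2) and Tnfrsf18 (GITR). Of the 12798 genes 44 were called at 4-fold or more higher in Treg. Tnfrsf4, Tnfrsf9 and Tnfrsf1b were among them, at ranks 11, 20 and 32 by size of the positive differences, while Tnfrsf18 ranked 50.

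Tnfrsf4 encodes OX40, a costimulatory receptor whose ligand is carried by activated antigen-presenting cells. In Tconv it read 7.59 and 7.66 in B6 fusion, 7.51 and 7.89 in B6 ires, 8.29 and 8.50 in NOD fusion, and 8.12 and 7.91 in NOD ires. In Treg it read 11.40 and 11.42 in B6 fusion, 11.19 and 11.17 in B6 ires, 10.94 and 10.91 in NOD fusion, and 10.72 and 10.91 in NOD ires. The ranges lie far apart, and within Treg the B6 arrays are the high ones, within Tconv the NOD arrays. The mean difference was 3.15 ± 0.07 (SE), 8.87-fold (adjusted p = 1.4e-16).

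Tnfrsf18 encodes GITR, the costimulatory receptor next to Tnfrsf4 on chromosome 4. Its Tconv arrays read 8.31 and 8.50 in B6 fusion, 8.43 and 8.64 in B6 ires, 9.20 and 9.29 in NOD fusion, and 9.24 and 9.08 in NOD ires. Its Treg arrays read 11.00 and 10.89 in B6 fusion, 10.80 and 10.82 in B6 ires, 10.73 and 10.76 in NOD fusion, and 10.65 and 10.55 in NOD ires. As with Tnfrsf4, the B6 arrays were the higher ones in Treg and the NOD arrays the higher ones in Tconv. Treg exceeded Tconv by 1.94 ± 0.06, 3.84-fold (adjusted p = 1.08e-14).

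Tnfrsf9 encodes CD137, an activation-induced costimulator that signals through TRAF1 and TRAF2. In Tconv it read 7.86 and 7.79 in B6 fusion, 7.82 and 7.84 in B6 ires, 7.26 and 7.51 in NOD fusion, and 7.59 and 7.28 in NOD ires. In Treg it read 11.05 and 10.93 in B6 fusion, 10.48 and 10.66 in B6 ires, 10.24 and 10.07 in NOD fusion, and 9.89 and 10.04 in NOD ires. Here NOD arrays were the lower ones in both cell types, and Treg and Tconv did not overlap. The difference was 2.80 ± 0.07, 6.98-fold (adjusted p = 5.66e-16).

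Tnfrsf1b encodes TNFR2, the TNF receptor without a death domain. Its Tconv arrays lay between 8.38 and 8.75. In Treg it read 11.37 and 11.36 in B6 fusion, 10.92 and 10.85 in B6 ires, 10.87 and 10.66 in NOD fusion, and 10.37 and 10.47 in NOD ires. The Treg groups thus order as B6 fusion, then B6 ires and NOD fusion, whose arrays overlap, then NOD ires, while the Tconv groups do not separate. Treg exceeded Tconv by 2.38 ± 0.06, 5.20-fold (adjusted p = 1.8e-15).

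Traf1, Tnfrsf13b and Cd27 rose by smaller amounts. Traf1, the adaptor that joins TRAF2 at CD137 and TNFR2 and is itself induced by NF-kB, had a lowest, median and highest value of 8.52, 9.02 and 9.22 in Tconv and 9.56, 9.78 and 9.94 in Treg, a difference of 0.83 ± 0.08 (adjusted p = 8.92e-08). Tnfrsf13b encodes TACI, a receptor for BAFF and APRIL best known on B cells. It read 7.72 to 8.08 (median 7.82) in Tconv and 8.26 to 8.72 (median 8.53) in Treg, 0.65 ± 0.07 higher (adjusted p = 5.57e-07). The summed B cell markers given above overlapped between Treg and Tconv, and on the array where they were highest, NOD fusion Tconv replicate 1, Tnfrsf13b read 7.85. Of the 5 B cell markers tested, 1 was called, Cd79b, which read 6.32 to 7.35 in Tconv and 7.11 to 7.75 in Treg, 0.69 ± 0.09 higher. Its part in the Tnfrsf13b difference was not tested. Cd27, the receptor of CD70 and a costimulator of naive and memory T cells, read 10.29 to 10.61 (median 10.45) in Tconv and 10.76 to 11.28 (median 10.89) in Treg, 0.47 ± 0.06 higher (adjusted p = 2.87e-06).

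The 3 receptors with a death domain differed by less than 1 (log2). Fas, which triggers apoptosis through FADD and caspase-8, read 7.48 to 8.22 (median 7.92) in Tconv and 8.29 to 8.71 (median 8.41) in Treg, 0.55 ± 0.08 higher (adjusted p = 1.73e-05). Tnfrsf25 encodes DR3, the receptor of TL1A. It read 9.02 to 9.47 in Tconv and 9.35 to 9.65 in Treg, and 6 of its 8 Treg arrays lay above all Tconv arrays, with a difference of 0.28 ± 0.07 (adjusted p = 0.00497). Tnfrsf1a encodes TNFR1, which binds TNF as TNFR2 does but carries a death domain. It was the member that fell: 8.68 to 9.01 in Tconv and 8.37 to 8.77 in Treg, a change of -0.35 ± 0.06 (adjusted p = 0.000211), with 7 of 8 Treg arrays below all Tconv arrays.

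Without overlap between all 8 Treg and all 8 Tconv arrays, 8 of the 10 members stood higher in Treg. Among all genes tested 5.69% did so, and 2.59% stood lower without overlap. These 10 calls kept their direction and their side of the threshold under each alternative run. The split of all called genes did move: 2138 were higher and 1526 lower as deposited, 1719 and 1722 with each array centred on its median, and 2106 and 2203 after quantile normalization.

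**Figure D1:**
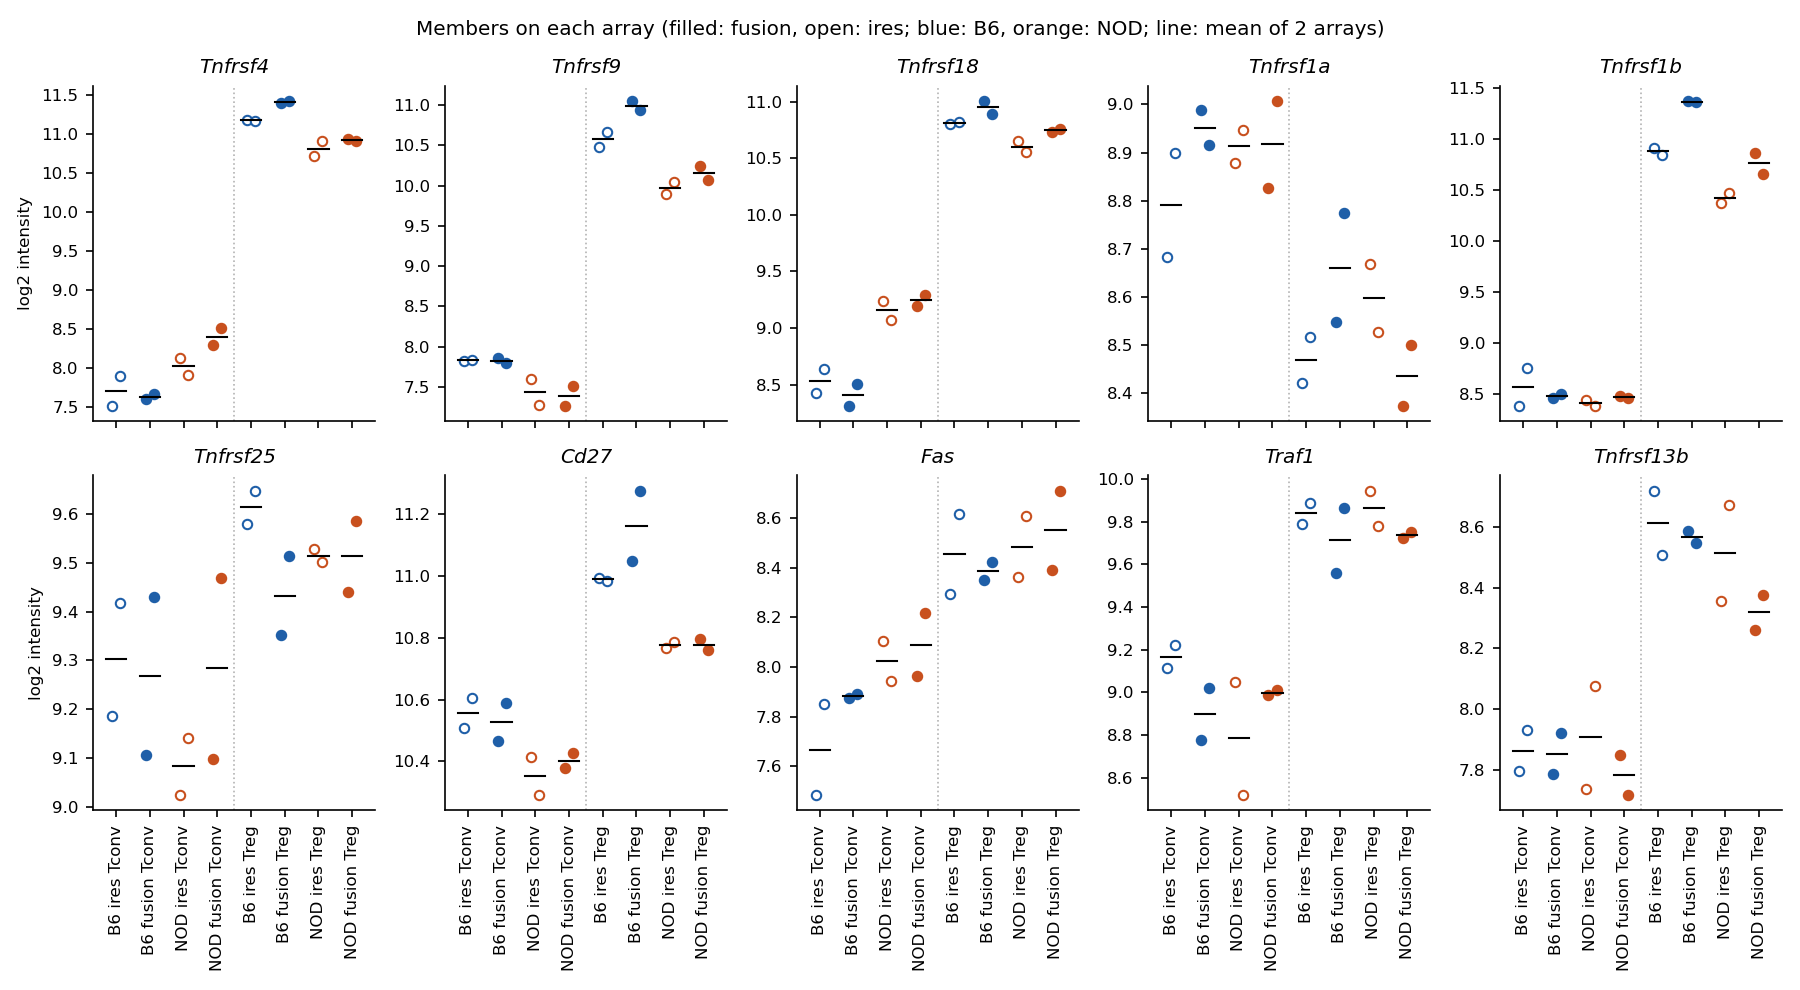
The log2 intensity of each member (vertical axes, 1 panel per gene, each with its own scale) on the 16 arrays, by group. Filled circles are fusion and open circles ires arrays, blue B6 and orange NOD, the black line is the mean of 2 arrays, and the dotted line separates Tconv (left) from Treg (right). Treg and Tconv do not overlap for 8 members; Tnfrsf25 and Tnfrsf1a overlap.

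In single mouse lines, with 2 arrays against 2, the members called were 8 in B6 fusion, 8 in B6 ires, 8 in NOD fusion and 7 in NOD ires, beside 14.1%, 9.88%, 11% and 9.26% of all genes. The difference spanned the widest range over lines for Tnfrsf4 and Tnfrsf18. For Tnfrsf4 it was 3.79 in B6 fusion, 3.48 in B6 ires, 2.53 in NOD fusion and 2.80 in NOD ires mice. For Tnfrsf18 the values were 2.54, 2.28, 1.50 and 1.44 in the same order. Both receptors thus separated Treg from Tconv more widely in the B6 lines, which is tested below as the strain effect. Tnfrsf9 ranged from 2.53 (NOD ires) to 3.17 (B6 fusion), and Tnfrsf1b from 2.01 (NOD ires) to 2.89 (B6 fusion). Among the other members the range over lines was 0.67 to 1.08 for Traf1, 0.54 to 0.75 for Tnfrsf13b, 0.46 to 0.79 for Fas and 0.38 to 0.64 for Cd27. It was 0.16 to 0.43 for Tnfrsf25 and -0.48 to -0.29 for Tnfrsf1a, so that every member kept its sign in the 4 lines. Not all of these passed alone: Tnfrsf25 was called in none of the lines (adjusted p = 0.0724 to 0.526), Tnfrsf1a in NOD fusion (adjusted p = 0.0148) but not in the other lines (0.13 to 0.15), and Fas in the B6 lines but not in NOD fusion (0.0691) or NOD ires (0.0812).

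**Figure D2:**
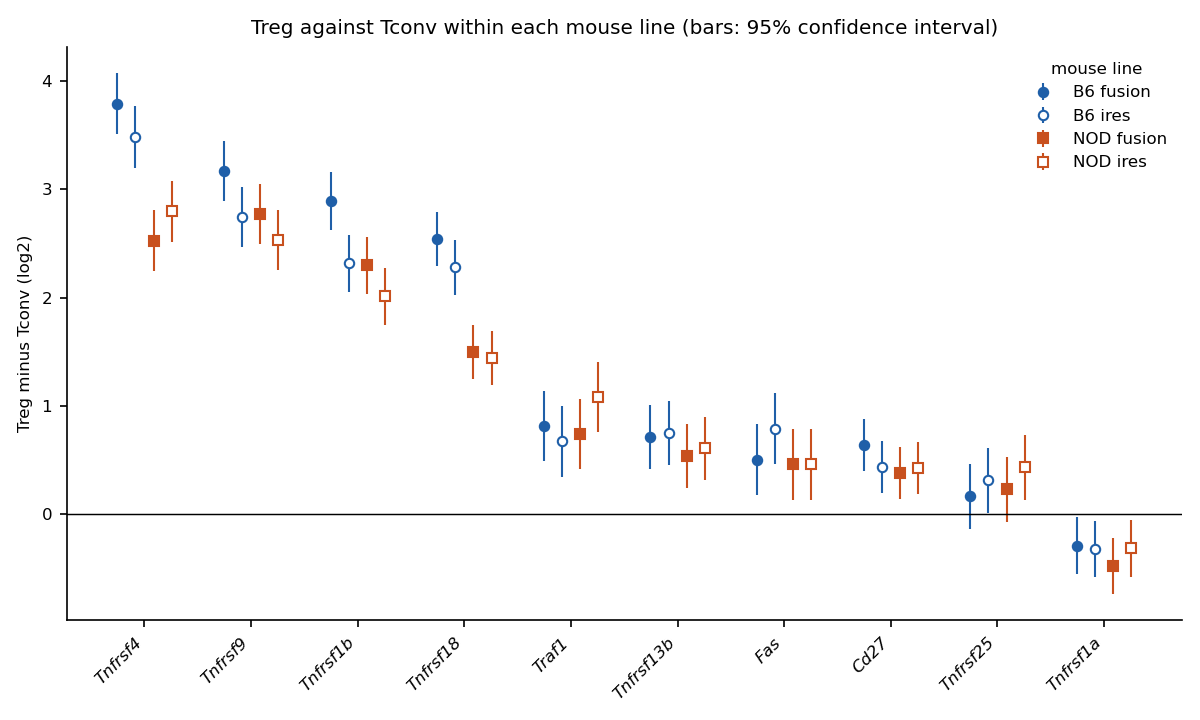
Treg minus Tconv (log2, vertical axis) for each member in each mouse line, with 95% confidence intervals from the linear model as bars. Blue marks are B6, orange marks NOD, filled marks fusion and open marks ires. Tnfrsf4 and Tnfrsf18 are higher in both B6 lines than in both NOD lines, as 3.79 and 3.48 against 2.53 and 2.80 for Tnfrsf4.

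The reporter alleles were compared in Treg to see whether joining GFP to Foxp3 went with other receptor levels. Tnfrsf1b was the single member called, higher with the fusion allele, among 0.609% of all genes called in either direction and 0.398% as higher. Its fusion Treg arrays read 11.37, 11.36, 10.87 and 10.66 and its ires Treg arrays 10.92, 10.85, 10.37 and 10.47, so that the 2 sets overlap across backgrounds and separate within B6 and within NOD. The difference was 0.41 ± 0.09, 1.33-fold (95% confidence interval 0.23 to 0.60, adjusted p = 0.0431). This call sits at the threshold. It was lost without the filter (adjusted p = 0.0659), with centred arrays (0.0626), and without either NOD fusion Tconv array (0.0555 and 0.0556). It was also lost without any single Treg array: B6 fusion replicate 1 (0.13) or 2 (0.0964), NOD fusion 1 (0.201) or 2 (0.0512), B6 ires 1 (0.11) or 2 (0.164), and NOD ires 1 (0.184) or 2 (0.103). Over all alternatives the difference lay between 0.36 and 0.47 and the adjusted p between 0.00891 and 0.201. Of all called genes 51 were higher and 27 lower with fusion, and 48 and 13 with centred arrays.

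Within a single background Tnfrsf1b did not pass: it was 0.49 ± 0.13 in B6 (adjusted p = 0.161) and 0.34 ± 0.13 in NOD (adjusted p = 0.829). In Tconv the same comparison gave -0.02 ± 0.09 (adjusted p = 0.999), and the allele difference of Treg less that of Tconv was 0.43 ± 0.13 (adjusted p = 0.471), so that a difference between the cell types was not shown. Tnfrsf9, the member nearest to Tnfrsf1b, was 0.30 ± 0.09 higher with fusion in Treg (adjusted p = 0.248, interval 0.11 to 0.50). Tnfrsf4 (0.17 ± 0.10) and Tnfrsf18 (0.14 ± 0.08) did not pass either, with intervals of -0.03 to 0.37 and -0.04 to 0.32. The other 6 members lay between -0.13 and 0.09. Fusion and ires Treg arrays overlapped for all 10 members, where 1.41% of all genes stood above and 0.742% below without overlap. No member was called with limma in B6 Treg alone (all genes 0.344%, with 0.289% higher and 0.0547% lower; 2 members at an unadjusted p under 0.05), NOD Treg alone (0.102%, with 0.0703% higher and 0.0313% lower; 1 member), the difference between these (0.0391%, with 0.0156% higher and 0.0234% lower; 0 members), Tconv (0.0234%, with 0.0156% higher and 0.00781% lower; 0 members) or the allele difference of Treg less that of Tconv (0.0469%, all higher; 2 members).

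More members were called between the backgrounds. In Treg 4 members were lower in NOD than in B6 and 0 were higher, where 21% of all genes were called, 11.2% higher and 9.82% lower. Tnfrsf9 was 9.89 to 10.24 on the 4 NOD Treg arrays and 10.48 to 11.05 on the 4 of B6, a change of -0.72 ± 0.09 (adjusted p = 3.08e-05). Tnfrsf1b was 10.37 to 10.87 in NOD and 10.85 to 11.37 in B6, -0.53 ± 0.09 (adjusted p = 0.000396). These 2 were called under all alternatives run. Tnfrsf4 was 10.72 to 10.94 in NOD and 11.17 to 11.42 in B6, -0.43 ± 0.10 (adjusted p = 0.00399), and the call was lost after quantile normalization (-0.22, adjusted p = 0.0629). Cd27 was 10.76 to 10.80 in NOD and 10.99 to 11.28 in B6, -0.30 ± 0.08 (adjusted p = 0.014), and was lost with centred arrays (-0.24, adjusted p = 0.0882) and after quantile normalization (-0.13, adjusted p = 0.178).

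Tnfrsf18 did not pass in Treg at -0.21 ± 0.08 (adjusted p = 0.0889), although its NOD arrays (10.55 to 10.76) all lay below those of B6 (10.80 to 11.00). In all, 4 members (Tnfrsf4, Tnfrsf9, Tnfrsf18 and Cd27) stood below B6 without overlap, as did 10% of all genes. Markers of other cells moved in the same comparison. Of the 5 myeloid markers tested 2 were lower in NOD Treg, Itgam (-0.45 ± 0.13) and Lyz2 (-0.60 ± 0.20). Both lay near or below the filter's level of 6.06, Itgam at 5.76 to 6.57 in Treg and Lyz2 at 4.92 to 6.25. The 12 measured, of which 5 passed the filter, summed to 541 to 620 on NOD and 667 to 718 on B6 Treg arrays, without overlap. Of the 5 CD8 T and NK cell markers tested 2 were higher and 2 lower. The B cell marker Blk (-0.39 ± 0.08), which read only 5.56 to 6.16 in Treg, and the Treg marker Ctla4 (-0.63 ± 0.17) were lower. Of the T cell markers 2 were higher and 1 lower. The part of these markers in the members' differences was not tested. The remaining receptors and Traf1 lay within -0.17 and 0.10 of B6, with Tnfrsf13b lowest and Fas highest. Of all called genes 1433 were higher and 1257 lower in NOD Treg, and 1650 and 753 with centred arrays.

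In Tconv 2 members were higher in NOD and 1 was lower, against 15.9% of all genes called, 9.39% higher and 6.49% lower. Tnfrsf18 was 9.08 to 9.29 on NOD and 8.31 to 8.64 on B6 arrays, 0.73 ± 0.08 higher (1.66-fold, adjusted p = 1.03e-05). Tnfrsf4 was 7.91 to 8.50 on NOD and 7.51 to 7.89 on B6 arrays, 0.55 ± 0.10 higher (1.46-fold, adjusted p = 0.000916). Neither receptor overlapped between the strains, in a direction opposite to that of the same genes in Treg. Tnfrsf9 was 7.26 to 7.59 on NOD and 7.79 to 7.86 on B6 arrays, a change of -0.42 ± 0.09 (adjusted p = 0.00708), which is the direction it had in Treg. The calls of Tnfrsf18, Tnfrsf4 and Tnfrsf9 held under all alternatives run.

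Markers of Treg moved with the Tconv comparison. Of the 4 Treg markers, Foxp3 (0.50 ± 0.16), Ikzf2 (0.61 ± 0.13) and Il2ra (0.85 ± 0.21) were called higher in NOD Tconv and Ctla4 was -0.20 ± 0.17. Their summed intensity was 439 to 573 on the B6 Tconv arrays, 523 to 900.3 on the NOD Tconv arrays and 9779 to 12874 on the Treg arrays. The highest Tconv sum was that of NOD fusion Tconv replicate 2. The Foxp3 and Il2ra calls were lost under several alternatives. Under the alternatives other than leaving out an array, 1 to 3 of the 4 Treg markers were called higher. Without NOD fusion Tconv replicate 2, Foxp3 was 0.23 and Il2ra 0.62, while Tnfrsf18 was 0.71 and Tnfrsf4 0.49. The value of Ikzf2 without that array is not given here. In the same comparison the 9 members higher in Treg ran from 0.73 for Tnfrsf18 and 0.55 for Tnfrsf4 to -0.42 for Tnfrsf9. Between these, Fas was 0.28, Tnfrsf13b -0.01, Tnfrsf1b -0.08, Tnfrsf25 -0.10, Traf1 -0.14 and Cd27 -0.17. Tnfrsf9 was also lower in NOD Treg (-0.72). The part of these markers in the Tnfrsf4 and Tnfrsf18 differences was not tested.

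The other members of Tconv did not pass. Fas was 0.28 ± 0.11 higher in NOD (adjusted p = 0.0849), its NOD arrays (7.95 to 8.22) all above those of B6 (7.48 to 7.89), and it was called with centred arrays (0.36, adjusted p = 0.0494) and without B6 ires Tconv replicate 2 (0.37, adjusted p = 0.0354). Cd27 was -0.17 ± 0.08 (adjusted p = 0.152), its NOD arrays (10.29 to 10.43) all below those of B6 (10.47 to 10.61). Thus 3 members stood above B6 without overlap, as did 15.7% of all genes, and 2 stood below, as did 8.92%. Tnfrsf1b (-0.08), Traf1 (-0.14), Tnfrsf25 (-0.10), Tnfrsf1a (0.04) and Tnfrsf13b (-0.01) lay close to B6. Of all called genes 1202 were higher and 831 lower in NOD Tconv, and 1934 and 368 with centred arrays, which moved the median difference of all genes from 0.02 to 0.11.

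The strain difference itself was compared between the cell types. Tnfrsf4 and Tnfrsf18 were the 2 members called, both with a more negative NOD minus B6 difference in Treg than in Tconv, among 0.82% of all genes called, 0.57% in that direction and 0.25% in the other. For Tnfrsf4 the difference of differences was -0.97 ± 0.13 (interval -1.26 to -0.69, adjusted p = 0.000611), and over all alternatives it lay between -1.07 and -0.69. For Tnfrsf18 it was -0.94 ± 0.12 (interval -1.19 to -0.69, adjusted p = 0.000309), and between -0.99 and -0.71 over the alternatives. By size they ranked 27 and 29 among the genes with a negative value. Of the Treg markers 0 were called with limma in this test (2 at an unadjusted p under 0.05), with -1.02 ± 0.30 for Il2ra, -0.56 ± 0.18 for Ikzf2, -0.43 ± 0.23 for Ctla4 and -0.35 ± 0.22 for Foxp3, and their part in the values of Tnfrsf4 and Tnfrsf18 was not tested. Tnfrsf1b had -0.45 ± 0.13 (adjusted p = 0.13) and was called only without B6 ires Tconv replicate 2 (-0.54, adjusted p = 0.0326). Tnfrsf9 had -0.30 ± 0.13 (adjusted p = 0.436, interval -0.58 to -0.03), and the other 6 members lay between -0.18 and 0.17. Of all called genes 32 were higher and 73 lower, and 61 and 86 after quantile normalization.

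**Figure D3:**
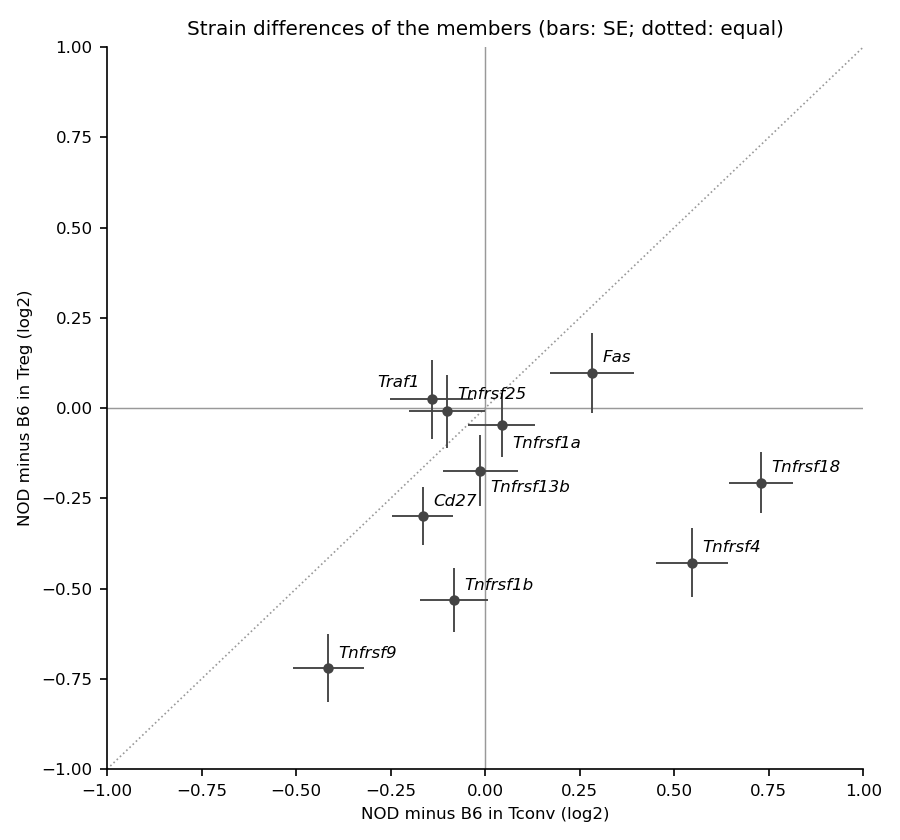
NOD minus B6 in Tconv (log2, horizontal axis) against NOD minus B6 in Treg (log2, vertical axis) for each of the 10 members, with standard errors as bars. The dotted line marks equal strain differences. Tnfrsf4 (0.55 and -0.43) and Tnfrsf18 (0.73 and -0.21) lie to the right of zero and below it, away from the line, while Tnfrsf9 (-0.42 and -0.72) is negative on both axes.

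Position links several members. Chromosome 4 holds 5 of them (Tnfrsf1b, Tnfrsf9, Tnfrsf25, Tnfrsf4 and Tnfrsf18), chromosome 6 holds Cd27 and Tnfrsf1a, and Traf1, Tnfrsf13b and Fas lie on chromosomes 2, 11 and 19. In the reference order of protein-coding genes Tnfrsf4 and Tnfrsf18 are direct neighbours, in the order B3galt6, Sdf4, Tnfrsf4, Tnfrsf18, Ttll10. For their other neighbours the strain effect of Treg minus that of Tconv was not called. It was -0.26 ± 0.13 for Sdf4 (adjusted p = 0.526), -0.01 ± 0.12 for Ttll10 (adjusted p = 0.99) and -0.19 ± 0.20 for B3galt6 (adjusted p = 0.846). C1qtnf12, the next gene beyond B3galt6, had -0.31 ± 0.13 (adjusted p = 0.388). In Treg alone, however, C1qtnf12 was called lower in NOD than in B6 (-0.31 ± 0.09, adjusted p = 0.0185). Between Treg and Tconv, Sdf4 was 0.38 ± 0.06 higher (adjusted p = 0.000106) and Ttll10 -0.02 ± 0.06 (adjusted p = 0.869), beside the 3.15 and 1.94 of the 2 receptors.

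**Figure D4:**
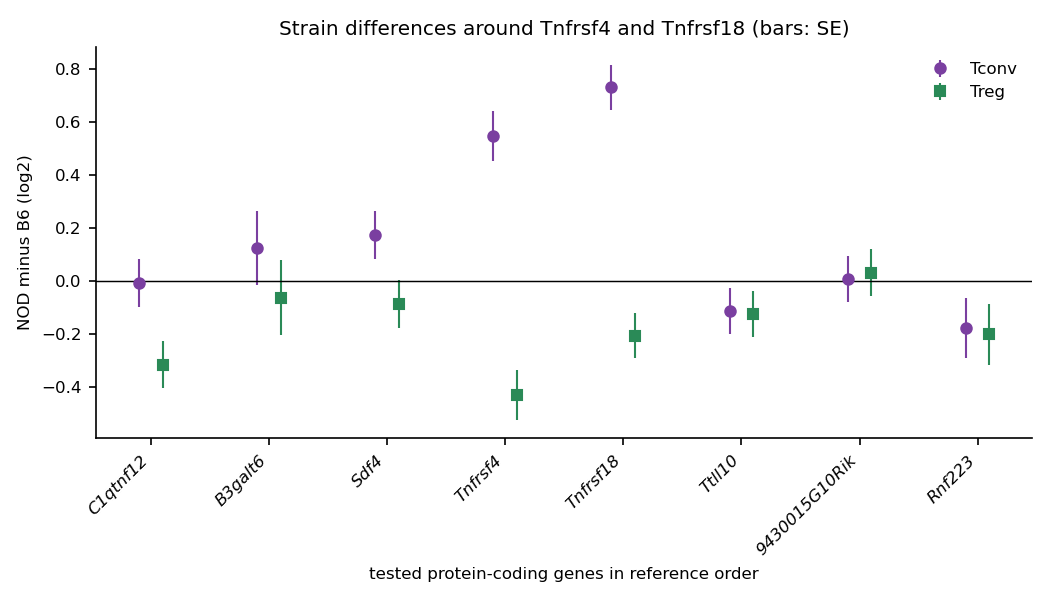
NOD minus B6 (log2, vertical axis, bars are standard errors) in Tconv (purple circles) and in Treg (green squares) for the tested protein-coding genes around Tnfrsf4 and Tnfrsf18, in reference order along the horizontal axis and not to scale. Tnfrsf4 and Tnfrsf18 reach 0.55 and 0.73 in Tconv, while the other genes shown stay between -0.18 and 0.17 there. In Treg C1qtnf12 is at -0.31, beside -0.43 for Tnfrsf4 and -0.21 for Tnfrsf18.

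Likeness was measured as the Pearson correlation over the 16 arrays with 12162 tested genes, for the 5 members whose group means span at least 1. It is a description, since Treg and Tconv form separate clusters that set most of it. Tnfrsf4 was most like Ikzf2 (0.993), Il2ra (0.992) and Itgb8 (0.991). Tnfrsf18 was most like Tnfrsf4 (0.988), its neighbour, then Dennd5a (0.986) and Coro2a (0.984). Tnfrsf9 and Tnfrsf1b were each among the genes most like the other (0.992), and Ctla4 stood in both lists (0.986 with Tnfrsf9 and 0.992 with Tnfrsf1b), with Stx11 (0.989) and Samsn1 (0.992) as the third genes. Traf1 was most like Axl (0.969), Zbtb10 (0.966) and Tspan32 (0.963).

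Of 19 other receptors of the family listed, 16 were tested, and 2 were higher and 2 lower in Treg, a share near the 28.6% of all genes called, with a median of -0.02. Tnfrsf8, which encodes CD30 and adjoins Tnfrsf1b, read 7.28 to 7.92 in Treg and 6.22 to 6.59 in Tconv, 1.15 ± 0.07 higher (adjusted p = 1.46e-10). Tnfrsf10b, the TRAIL receptor, was 0.18 ± 0.07 higher (adjusted p = 0.0448), a call lost with centred arrays (adjusted p = 0.126) and under several other alternatives. Tnfrsf26 was -0.59 ± 0.08 and Tnfrsf14, the receptor HVEM, -0.37 ± 0.07. Tnfrsf14 was also higher in NOD than in B6, by 1.03 ± 0.09 in Tconv (adjusted p = 3.73e-07) and 0.73 ± 0.09 in Treg (adjusted p = 2.28e-05).

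Ligands split both ways. Of 17 listed, 10 were tested, and 5 were higher and 4 lower in Treg, with a median of 0.18. Of all genes tested 16.7% were higher and 11.9% lower. Higher in Treg were Tnfsf10 (TRAIL, 0.95 ± 0.08), Lta (lymphotoxin alpha, 0.78 ± 0.06), Tnf (0.46 ± 0.09), Tnfsf11 (RANKL, 0.36 ± 0.07) and Ltb (0.32 ± 0.07). Lower were Cd40lg (CD40 ligand, a helper molecule for B cells, -1.91 ± 0.10), Tnfsf8 (CD30 ligand, -1.10 ± 0.12), Fasl (the ligand of Fas, -0.97 ± 0.10) and Tnfsf14 (a ligand of HVEM, -0.39 ± 0.08). So Fas and Tnfrsf8 were higher in Treg while Fasl and Tnfsf8 were lower. The ligands of OX40 (Tnfsf4, 4.43 to 5.22), CD137 (Tnfsf9, 5.07 to 5.84), GITR (Tnfsf18, 4.52 to 5.08) and CD27 (Cd70, 4.82 to 5.40) did not pass the filter, whose level was 6.06. Of the ligands of TACI, BAFF (Tnfsf13b, 5.34 to 5.90) did not pass it either. APRIL (Tnfsf13) was not measured, as no probe set mapped to its symbol alone. Tnfsf15, the ligand of DR3, read 5.91 to 6.21 and did not differ beyond its error (0.04 ± 0.06, adjusted p = 0.684).

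Of 21 adaptors and regulators listed, 18 were tested, and 7 were higher and 2 lower in Treg, with a median of 0.10. The shares of all genes were 16.7% higher and 11.9% lower. Tank, which binds TRAF proteins, was 0.98 ± 0.08 higher. Tnip1 (0.83 ± 0.07) and Tnfaip3 (0.69 ± 0.07), which encode the NF-kB inhibitors ABIN1 and A20, were also higher, as were Birc3 (0.55 ± 0.07) and Traf2 (0.40 ± 0.06), a TRAF1 partner. Map3k14, the kinase NIK of the alternative NF-kB pathway, was -0.57 ± 0.07 and Ikbkb, a kinase of IkB, -0.20 ± 0.07.

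The NF-kB subunits and IkB family genes moved together: of 11 listed 10 were tested, and all 10 were called higher in Treg, with a median of 0.64. Among all genes tested 16.7% were higher. The subunit gene Nfkb1 was left out because no probe set mapped to its symbol alone. Centring the arrays left 9, Nfkbib being lost (0.18, adjusted p = 0.10). Rel, the subunit c-Rel that Treg need for their development, was 0.87 ± 0.06 higher (adjusted p = 2.62e-09). Nfkb2 (0.86 ± 0.06) and Relb (0.55 ± 0.06) belong to the alternative pathway, and Nfkbia (0.83 ± 0.06), Nfkbiz (0.68 ± 0.07) and Bcl3 (0.68 ± 0.07) are IkB family members, several of them themselves NF-kB targets. Rela, the common subunit p65, differed by 0.23 ± 0.06 (adjusted p = 0.00737).

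**Figure D5:**
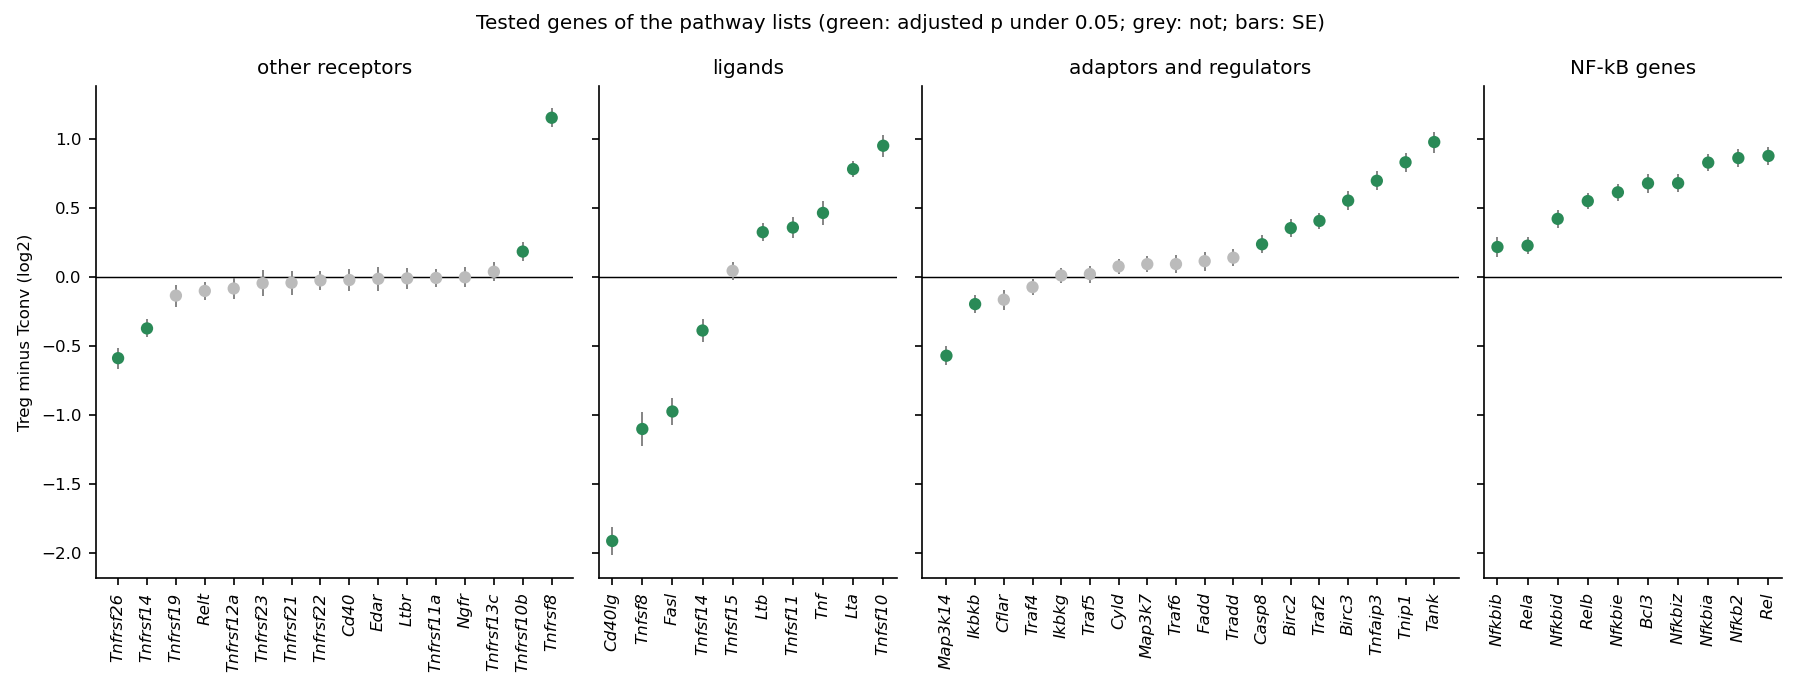
Treg minus Tconv (log2, vertical axis, bars are standard errors) for the tested genes of the 4 pathway lists, ordered by size within each. Green points passed the adjusted p threshold and grey points did not. All 10 NF-kB genes lie above 0, while the 16 other receptors lie mostly near 0 and the ligands run from -1.91 for Cd40lg to 0.95 for Tnfsf10.

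The same lists were read in the strain and allele comparisons. Of their 54 tested genes 7 were called in NOD against B6 Treg, where 21% of all genes were, and 6 in Tconv, where 15.9% were. In fusion against ires Treg, where 0.609% of all genes were called, limma called 0 of the 54, with 8 at an unadjusted p under 0.05, and 0 were called with each alternative run. In NOD against B6 Treg, Cd40lg was 0.81 ± 0.15 higher in NOD (adjusted p = 0.000841) and held under all alternatives, as did Tnfrsf14. Tnfsf8 was 0.65 ± 0.18 higher (adjusted p = 0.0154) and lost its call without B6 fusion Treg replicate 1 (0.43), NOD fusion Treg replicate 2 (0.48) or B6 ires Treg replicate 1 (0.50). Further calls in Treg were Tnfsf10 (-0.34 ± 0.11), Relb (-0.31 ± 0.08), Map3k14 (0.35 ± 0.10) and Map3k7 (0.28 ± 0.08), and each of these 4 was lost under some alternatives. In Tconv 0 ligands and 0 NF-kB genes were called with limma (1 and 2 at an unadjusted p under 0.05), 4 adaptors were higher in NOD, namely Tnip1 (0.42 ± 0.10), Map3k7 (0.35 ± 0.08), Fadd (0.31 ± 0.10) and Ikbkg (0.24 ± 0.08, at the threshold), 1 further receptor, Tnfrsf14, was higher as given above, and 1, Tnfrsf21, was lower (-0.37 ± 0.12). When 1 array was left out, 1 to 4 adaptors were higher. Tnip1 lost its call without B6 fusion Tconv replicate 1 (0.36, adjusted p = 0.0547) and Map3k7 without NOD ires Tconv replicate 1 (0.28, adjusted p = 0.0677). Fadd and Ikbkg lost theirs under several alternatives. Tnfrsf21 lost its call without B6 fusion Tconv replicate 1 (-0.34) or 2 (-0.41), NOD fusion Tconv replicate 2 (-0.24), B6 ires Tconv replicate 1 (-0.31) or NOD ires Tconv replicate 1 (-0.28), and under other settings. In the strain effect of Treg minus that of Tconv, limma called 0 of the 54 genes, 5 at an unadjusted p under 0.05, and Tnfsf10 was called under 2 alternatives: trend and robust variances (-0.59, adjusted p = 0.0451) and without NOD ires Tconv replicate 2 (-0.71, adjusted p = 0.0278).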

How the data were processed

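RNA of the sorted cells was hybridized to Affymetrix arrays. Affymetrix Power Tools and RMA are named in the submitters' processing notes; no version or build is given. The authors deposited linear intensities, taken here as log2 without a pseudocount. Of 25108 probe sets, 21157 had exactly 1 symbol, 1341 several and 2610 none. For 906 of 19531 genes with more than 1 probe set, that with the highest mean stood for the gene. To be tested, a gene had to exceed log2 6.06, the 40th percentile, on 2 or more arrays.

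The linear model, with a mean for each of 8 groups, used limma 3.58.1 (R 4.3.3) on the 16 arrays, with 8 residual and 9.80 prior degrees of freedom and two-sided tests. Promoters and plots used Python 3.11.15. Sequence differences between strains under the probes were not examined. Replicate numbers were not used to pair the arrays in this model.

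Named were all 10 members, their listed ligands, up to 4 called genes with the largest differences per pathway list, comparison and direction, and the 3 genes most like each wide-ranging member. Ltb, Traf2, Bcl3, Relb, Rela and Nfkbib in Treg against Tconv, the neighbours on chromosome 4 and single markers, fell outside this and were chosen after their values were seen. The members and the gene lists were chosen with earlier results of these data known.

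On simulated data of 12798 genes with 200 changed, changes of 0.5 (log2) were recovered at 100% for Treg against Tconv, 90% for fusion against ires in Treg, 93% and 83% for NOD against B6 in Treg and Tconv, and 39% for the strain effect of Treg less that of Tconv. Alternatives were no filter or one at the 60th percentile, centred or quantile-normalized arrays, a variance trend with robust estimates, weighted arrays, averaged probe sets, fits of only the groups compared, a replicate block, and leaving out each array.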

Additional observations from a re-analysis of the deposited data

Results flagged for a closer look

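The strain difference of 2 adjacent receptor genes differed between the cell types by the test of that difference. For Tnfrsf4 (OX40) NOD minus B6 was -0.43 ± 0.10 (SE) in Treg and 0.55 ± 0.10 in Tconv, a difference of -0.97 (adjusted p = 0.000611 in limma), with the NOD arrays lower in 4 of 4 Treg arrays and higher in 4 of 4 Tconv arrays than every B6 array of that cell type. For Tnfrsf18 (GITR) it was -0.21 ± 0.08 in Treg and 0.73 ± 0.08 in Tconv, a difference of -0.94 (adjusted p = 0.000309). Again 4 of 4 NOD arrays lay beyond every B6 array in both cell types. Of all genes tested, 10% stood below B6 without overlap in Treg and 15.7% stood above it in Tconv. The share of genes that did both was not counted. In the test of the difference 0.82% of all genes were called, 0.57% in this direction. In Treg alone Tnfrsf18 was not called (adjusted p = 0.0889 in limma). The Tnfrsf4 call in Treg was lost after quantile normalization (-0.22, adjusted p = 0.0629). The Treg markers that moved in NOD Tconv are given with the report's values, and their part was not tested.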

How the results depend on the processing

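All 240 values of the members in Treg against Tconv, over 10 members and 24 alternatives, kept direction and call, and no alternative reversed a called member in any comparison. The number of members called in fusion against ires Treg went from 1 to 0 without the filter and to 0 with centred arrays, and lay between 0 and 1 when an array was left out; 12 of 250 values lost the call, all of Tnfrsf1b. In NOD against B6 Treg quantile normalization left 2 of 4 members, in NOD against B6 Tconv leaving out an array gave 3 to 4 members, and in the strain effect of Treg minus that of Tconv 2 to 3. Counts over all genes, when an array was left out, were 30 to 91 beside 78 for fusion against ires in Treg, 11 to 49 beside 44 in B6, 3 to 15 beside 13 in NOD, 3 to 8 beside 5 for their difference, 2 to 11 beside 3 in Tconv, 2 to 18 beside 6 for the allele effect of Treg minus that of Tconv, 1594 to 3056 beside 2690 for NOD against B6 in Treg, 839 to 2363 beside 2033 in Tconv, and 69 to 141 beside 105 for the strain effect. Other settings that moved such counts over 1.5 times were array weights (20) and only the groups compared (168) in B6, only the groups compared in NOD (2), the stricter filter (9), quantile normalization (8) and trend and robust variances (9) for NOD minus B6, and trend and robust variances in Tconv (6) and for the allele effect of Treg minus that of Tconv (19). Fits of only the groups compared were not run where the comparison uses all 8 groups. The causes of these changes were not tested.

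The replicate numbers were checked over 28 pairs of groups. Same-numbered arrays deviated with correlations of -0.37 to 0.47 (median 0.15), 16 of them over 0.1 and 6 under -0.1. What same-numbered arrays share is not in the labels, and these correlations do not settle it. With the replicate block 10 members were called for Treg against Tconv, 1 for fusion against ires in Treg, 4 for NOD against B6 in Treg, 4 in Tconv (Fas at 0.28, adjusted p = 0.0391, being added) and 2 for the strain effect, and 16 genes in place of 6 for the allele effect of Treg minus that of Tconv.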

Other observations

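Markers of other cells were measured with the receptors. Of 8 T cell markers 7 were on the array, and 2 were called higher and 2 lower in Treg than in Tconv. Of 12 myeloid markers 5 passed the filter, with 0 higher and 1 lower. Of 8 dendritic cell markers 4 passed the filter and 0 were called with limma, 0 also at an unadjusted p under 0.05. Of 8 CD8 T and NK cell markers 5 passed the filter, with 1 higher and 3 lower in Treg. The 4 Treg markers were all called higher in Treg. Of all genes tested, 16.7% were called higher and 11.9% lower in Treg. In NOD against B6 Tconv, T cell markers were 2 higher, CD8 T and NK cell markers 1 higher and 1 lower, and dendritic cell markers 1 lower. Of all genes 9.39% were higher and 6.49% lower there. In the strain effect of Treg minus that of Tconv, 1 myeloid marker was lower and 1 CD8 T and NK cell marker higher. In that test 0.57% of all genes were lower and 0.25% higher. The part of these markers in the members' differences was not tested.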
